A study of Mus musculus with 5 samples.

Results

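Actins and tropomyosins build the thin filament, and 9 of their genes were followed in cardiomyocytes that had received 4 reprogramming factors. The 9 genes were chosen by symbol (5 actins: Acta1, Acta2, Actc1, Actb and Actg1; 4 tropomyosins: Tpm1, Tpm2, Tpm3 and Tpm4). All 9 were present among the 12446 genes of the deposited table, and all 9 passed the filter on low values that left 10915 genes for testing. Cardiomyocytes of male C57BL/6 hearts gave 3 OSKM-CMs libraries (replicates 1, 2 and 3) after thoracic cavity injection of adeno-associated virus (AAV) vectors for Oct4-His6, Sox2-Flag, Klf4-HA and Myc-V5. A further 2 libraries, Control-CMs replicates 3 and 5, came from male C57BL/6 mice given AAV-cTnT-BFP, which encodes blue fluorescent protein, at a dose equal to the 4 factors combined. Mice of both groups were injected at 8 weeks of age and are labelled as 12 to 14 weeks old. In each vector the promoter was that of cardiac troponin T (cTnT), which works in cardiomyocytes, so both groups had received virus and differed in the cargo. Because the labels do not name the animal behind a library, p-values measure the spread between these libraries, which may be technical.

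Actin polymerizes into the backbone of the thin filament, and tropomyosin dimers lie end to end along it, where they and the troponin complex control access of myosin heads. Vertebrates carry separate genes for the actin of cardiac muscle (Actc1), skeletal muscle (Acta1) and smooth muscle (Acta2), and for the cytoplasmic beta (Actb) and gamma (Actg1) actins of every cell. The embryonic heart makes smooth muscle and skeletal actin beside the cardiac form, the adult rodent heart relies on the cardiac form, and skeletal actin is known to return in overloaded hearts. Tpm1 supplies most tropomyosin of the adult heart, Tpm2 is the beta form of skeletal muscle and of the developing heart, Tpm3 serves slow muscle and the cytoskeleton, and Tpm4 is chiefly cytoskeletal.

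The muscle actins are close relatives at the level of coding sequence. The first 60 coding bases are shown because they hold the codons of the variable amino end that tells the isoforms apart. Capitals mark bases that differ from Actc1 (GENCODE M21 transcripts, GRCm38).
Actc1: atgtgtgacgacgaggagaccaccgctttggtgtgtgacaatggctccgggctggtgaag
Acta1: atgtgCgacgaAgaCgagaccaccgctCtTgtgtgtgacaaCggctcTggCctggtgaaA
Acta2: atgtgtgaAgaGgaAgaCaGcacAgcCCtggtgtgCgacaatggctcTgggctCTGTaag
Over the 1134 coding bases, Acta1 differed from Actc1 at 157 and Acta2 differed from Actc1 at 198, which is 86.2% and 82.5% identity. Actb and Actg1, with 1128 coding bases each, were 88.7% identical to one another and 81.9% to 85.3% identical to the muscle actins. The tropomyosins were farther apart, at 73.6% to 78.9%. The labels do not say how reads matching several genes were counted, so the uniqueness of each gene was measured in the GENCODE M21 transcripts. None of the 50-base stretches of Actc1, Tpm1 or Tpm2 occurred in a transcript of another gene. The share that did was 0.326% for Acta2, 2.02% for Acta1 and 9.12% for Actb. It was larger for Tpm4 (15.7%), Tpm3 (23.2%, all of it found in Tpm3-rs7) and Actg1 (37.4%, mostly in pseudogenes such as Gm12715). The values of Actg1, Tpm3 and Tpm4 are the least certain for that reason.

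The promoters of the 3 muscle actins are shown because Acta1 and Acta2 passed the test described further on and Actc1 did not. Each stretch is the 250 bases before the RefSeq start on GRCm38.p6, all on the minus strand: chr2:114052876-114053125 for Actc1, chr8:123894776-123895025 for Acta1 and chr19:34255374-34255623 for Acta2. Capitals mark CArG boxes, the element bound by serum response factor (SRF), with at most 1 inner base that is not A or T.
Actc1: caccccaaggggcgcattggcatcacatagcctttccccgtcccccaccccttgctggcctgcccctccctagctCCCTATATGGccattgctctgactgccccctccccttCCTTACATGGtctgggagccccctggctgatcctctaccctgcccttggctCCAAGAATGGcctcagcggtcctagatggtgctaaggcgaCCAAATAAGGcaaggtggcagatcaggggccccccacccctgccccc
Acta1: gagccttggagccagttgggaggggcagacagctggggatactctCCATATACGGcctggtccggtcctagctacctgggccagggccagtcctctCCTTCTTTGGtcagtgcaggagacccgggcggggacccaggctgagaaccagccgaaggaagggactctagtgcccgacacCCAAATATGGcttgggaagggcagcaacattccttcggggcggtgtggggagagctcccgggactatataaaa
Acta2: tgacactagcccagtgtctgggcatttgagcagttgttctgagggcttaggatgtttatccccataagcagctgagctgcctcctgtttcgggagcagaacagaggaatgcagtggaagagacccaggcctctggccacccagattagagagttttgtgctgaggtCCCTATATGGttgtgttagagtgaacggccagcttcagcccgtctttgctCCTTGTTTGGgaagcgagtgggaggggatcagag
In this looser form Actc1 had 4 matches, Acta1 had 3 and Acta2 had 2. Of the 32536 distinct promoter windows of the same length, 8.59% held at least 1 such match, as did the windows of Actg1 and Tpm3. Actb had no promoter among those scanned, so none of these motifs was looked for in it. The strict CArG box, with all inner bases A or T, lay in the windows of Actc1, Acta1 and Actg1 and in 1.48% of all windows. The looser form was added after the strict one gave no match in Acta2. The letters CATTCCT (the M-CAT element of TEAD factors, both strands) were found in the windows of Acta1, Acta2 and Tpm1 and in 4.53% of all windows. Of the motifs linked to the delivered factors, CACGTG (bound by Myc) was found only in the window of Actg1 among the 8 members with a promoter in the table, against 6.04% of all windows. CCACCC (bound by Klf factors) was in windows of Acta2, Actc1, Tpm2, Tpm3 and Tpm4 and in 28.1% of all, and ATGCAAAT (bound by Oct4) was in none of theirs and in 1.62% of all. TATAAA lay before the start of Acta1 and in 12.3% of all windows. No motif overlapped another in the 3 printed windows except where 1 CArG box met both definitions.

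Levels are given as scaled RPKM, reads over gene length and depth, divided by a factor per library (trimmed mean of M values, TMM) that sets the bulk of genes level. Reads over the listed genes totalled 2691796 to 2780751 in OSKM-CMs and 3519628 and 3861805 in Control-CMs, and the members held from 29 reads (Tpm2 in OSKM-CMs replicate 1) to 37334 (Actc1 in OSKM-CMs replicate 2). Mitochondrially encoded transcripts held 21.2% and 24.7% of control reads and between 9.76% and 11.1% of those in OSKM-CMs. Without TMM, on library totals alone, the median log2 fold change of all genes was higher by 0.34, and values under that scaling are given where they change a call. Cardiomyocyte markers were high in every library, with 10 of 10 in the table and summed levels of 26645 and 29521 in controls and 15184 to 16425 in OSKM-CMs. Of these 10, 8 fell, 1 rose and 1 did not pass (limma), with a median log2 fold change of -0.94. Among all genes tested, 14.3% fell and 15.9% rose. In these bulk libraries, fewer cells of a type and less RNA per cell cannot be told apart.

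Of the 9 genes, 2 rose (Acta1 and Acta2), 1 fell (Tpm1) and 6 did not pass (limma, Benjamini-Hochberg adjusted p below 0.05). Over all genes tested the same rule called 30.2%, 15.9% higher and 14.3% lower. The 3 calls among 9 are near that background, so the members as a set are not set apart by their count. Their median log2 fold change was -0.07, against 0.02 for all genes. The groups did not overlap for 6 of the 9, against 57.9% of all genes. Of these, 3 were higher and 3 lower in OSKM-CMs, against 30.0% and 27.8% of all genes. With library totals alone 5 members passed, all higher (Acta1, Acta2, Actc1, Actb and Tpm3), where 36.5% of all genes were called higher and 5.96% lower. The size of the actin changes lay farther out: 1.71% of tested genes had a larger log2 fold change than Acta1 and 1.5% a larger one than Acta2, while 14.0% had a lower one than Tpm1.

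**Figure D1:**
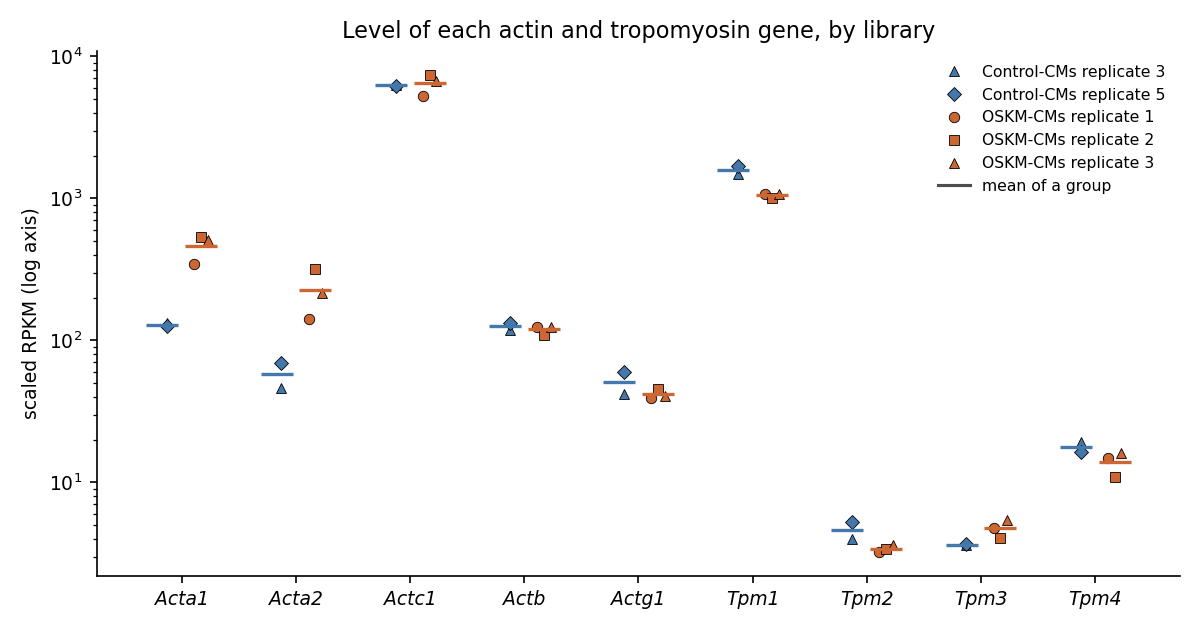
Scaled RPKM (log axis) of the 9 genes in each library, with symbols for replicates, colours for groups and a line at each group's mean. Acta1 and Acta2 sit higher in all 3 OSKM-CMs libraries than in both controls, Tpm1 sits lower, and Actc1 spreads from 5282 to 7433 in OSKM-CMs around the 2 controls at 6220 and 6265.

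Actc1 (ENSMUSG00000068614.7), the cardiac alpha-actin and the most abundant member in all 5 libraries, kept its place. Its scaled RPKM was 6265 and 6220 in Control-CMs replicates 3 and 5, and 5282, 7433 and 6651 in OSKM-CMs replicates 1, 2 and 3. The OSKM-CMs libraries lay on both sides of the controls, and their SD of 1089 was far above the control SD of 31.8. Its log2 fold change was 0.03 with a 95% interval of -0.33 to 0.40 (limma adjusted p = 0.891), which leaves room for a change of about that size in either direction. Among all genes in the table ranked by RPKM, Actc1 stood at places 13 and 17 in the controls and at 10, 8 and 8 in OSKM-CMs. With library totals alone its log2 fold change was 0.45 (limma adjusted p = 0.0428), close to the median of 0.36 that all genes had under that scaling.

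Acta1 (ENSMUSG00000031972.3), the skeletal alpha-actin, rose. Its scaled RPKM was 132 and 126 in Control-CMs replicates 3 and 5, and 347, 534 and 508 in OSKM-CMs replicates 1, 2 and 3. The lowest OSKM-CMs library was well above both controls, which lay close together. The group means were 129.05 ± 3.90 (SD, n = 2) and 463 ± 101 (SD, n = 3), a 3.59-fold rise with a log2 fold change of 1.81 (SE 0.19, limma adjusted p = 0.000682). Leaving out any 1 library gave 1.70 to 2.00, and the call held each time. It rested on 560 and 590 reads in the controls and 1539 to 2397 in OSKM-CMs. In rank by RPKM, Acta1 moved from places 355 and 394 to places 148, 95 and 98.

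Acta1 is the actin of adult skeletal muscle fibres, so markers of those fibres were read beside it, and 2 of 11 were in the table. Mybpc2, a fast skeletal myosin-binding protein, had 9.37 ± 1.21 in controls and 7.46 ± 1.95 in OSKM-CMs (limma adjusted p = 0.313). Mylpf, a fast skeletal myosin light chain, had 0 reads in both controls and 3 or 4 reads per library in OSKM-CMs, near the floor of 3 reads. It was below the filter here, and limma voom on all genes called it higher. The summed level of both was 8.51 and 10.2 in controls and 6.74 to 10.4 in OSKM-CMs, and the groups overlapped. The list of 11 held no slow-fibre gene. The slow skeletal troponin genes Tnni1 and Tnnt1 rose in the same libraries, Tnnt1 from a mean of 8.72 to 529 scaled RPKM. Skeletal muscle genes of the partner lists did not all rise. Tmod4, a pointed-end cap of skeletal muscle, fell from a mean of 19.5 to 4.06 (limma adjusted p = 0.000462). Neb, the long nebulin of skeletal muscle, had means of 1.31 and 0.925 (adjusted p = 0.392). The muscle kelch-repeat genes Kbtbd13 and Kbtbd5 also fell. The part of skeletal fibres in the Acta1 result was not tested.

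Acta2 (ENSMUSG00000035783.8), the smooth muscle alpha-actin, rose by a similar factor but with more scatter. Its scaled RPKM was 45.9 and 69.4 in Control-CMs replicates 3 and 5, and 142, 319 and 215 in OSKM-CMs replicates 1, 2 and 3. All 3 OSKM-CMs libraries were above both controls, with replicate 2 the highest. The means were 57.7 ± 16.6 (SD, n = 2) and 225 ± 88.9 (SD, n = 3), a 3.90-fold rise with a log2 fold change of 1.90 (SE 0.36, limma adjusted p = 0.0131). Leaving out Control-CMs replicate 3 ended the call (1.605, adjusted p = 0.0612), as did limma voom on reads recovered from the RPKM (1.92, adjusted p = 0.0528). Acta2 went from places 970 and 696 in rank by RPKM to places 332, 160 and 228.

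Acta2 is also a standard marker of vascular smooth muscle and of activated fibroblasts, so markers of those cells were read in the same libraries. Of 13 smooth muscle and mural markers, 11 were in the table and 10 were tested, of which 2 rose, 1 fell and 7 did not pass. The shares over all genes tested were 15.9% higher and 14.3% lower (limma). None of the 11 was at 0 in a library. Their summed level was 118 and 105 scaled RPKM in Control-CMs replicates 3 and 5 and 117, 80.1 and 106 in OSKM-CMs replicates 1, 2 and 3, so the groups overlapped. Smooth muscle myosin Myh11 had 5.30 ± 0.590 in controls and 4.49 ± 0.287 in OSKM-CMs (limma adjusted p = 0.365), and calponin Cnn1 had 1.51 ± 0.397 and 2.29 ± 1.04 (adjusted p = 0.431). Tagln, the smooth muscle protein transgelin, had 11.9 ± 0.946 and 10.1 ± 4.0 (adjusted p = 0.538). The mural markers that rose were Cspg4, a surface proteoglycan of pericytes, at 12.6-fold, and Pdgfrb, a pericyte and fibroblast receptor, at 2.03-fold. Cspg4 went from 1.96 and 1.65 in controls to 19.8, 21.6 and 26.7 in OSKM-CMs replicates 1, 2 and 3. The overlap of the summed levels rests on this gene, and the median log2 fold change of the tested mural markers was -0.21. Smtn, smoothelin, fell by 1.52 on the log2 scale.

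Of 13 fibroblast markers, 12 were in the table and 11 were tested, of which 4 rose, 7 did not pass and 0 fell by limma (6 higher and 0 lower at an unadjusted p below 0.05, and 1 higher and 0 lower by limma voom), with a median log2 fold change of 0.91. Over all genes tested, limma called 15.9% higher and 14.3% lower. Mfap5 was at 0 in Control-CMs replicate 5. Their summed level was 85.1 and 43.7 in Control-CMs replicates 3 and 5 and 218, 102 and 225 in OSKM-CMs replicates 1, 2 and 3. Postn, which encodes the matrix protein periostin, went from 1.30 ± 0.254 to 42.8 ± 20.3, and the collagen genes Col1a2 and Col3a1 rose 6.79-fold and 4.53-fold. The order of the OSKM-CMs libraries differed from that of Acta2: replicate 2 had the highest Acta2 and the lowest fibroblast, mural and endothelial sums. The part of these cells in the Acta2 result was not tested. Endothelial markers summed to 138 and 106 in controls and to 92.0, 45.0 and 67.3 in OSKM-CMs, with 2 of 10 lower (4 by limma voom), among them the receptor gene Kdr. Leukocyte markers summed to 56.8 and 13.8 in controls and to 25.5, 9.03 and 43.3 in OSKM-CMs, and 0 of 6 tested passed (limma), as at an unadjusted p below 0.05 and by limma voom.

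**Figure D2:**
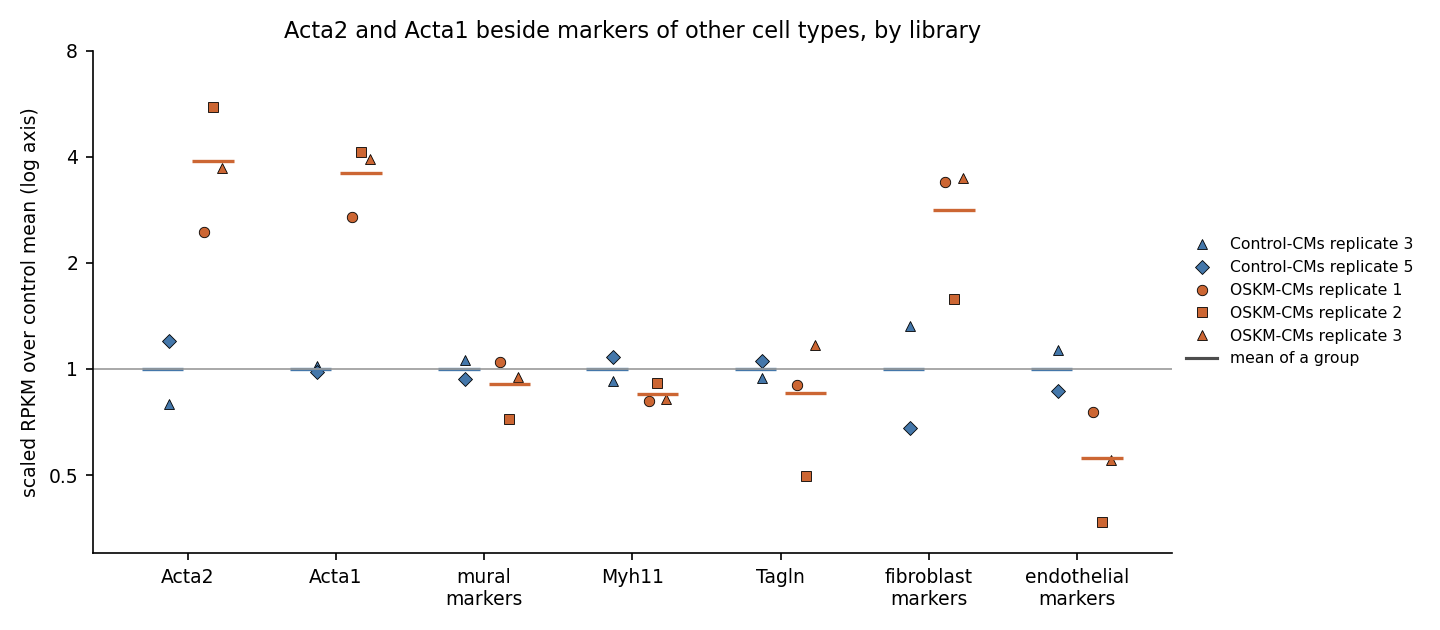
Scaled RPKM of Acta2, Acta1 and marker sums in each library, each divided by its control mean, on a log axis, with lines at group means. Acta2 is highest in OSKM-CMs replicate 2, the library with the lowest mural, fibroblast and endothelial sums of its group.

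The cytoplasmic actins did not pass. Actb (ENSMUSG00000029580.7), beta-actin, had 119 and 132 scaled RPKM in the controls and 124, 110 and 124 in OSKM-CMs. The groups overlapped, and its log2 fold change of -0.07 had a 95% interval of -0.34 to 0.20 (limma adjusted p = 0.678). Actg1 (ENSMUSG00000062825.8), gamma-actin, had 41.7 and 59.6 in the controls and 39.5, 45.6 and 40.8 in OSKM-CMs. Its log2 fold change was -0.25 with an interval of -0.63 to 0.14 (limma adjusted p = 0.305). The 2 controls differed from each other more than the OSKM-CMs libraries did. With library totals alone both signs turned, to 0.35 for Actb (limma adjusted p = 0.0397) and 0.17 for Actg1 (adjusted p = 0.392), each below the median of 0.36 of all genes under that scaling.

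Tpm1 (ENSMUSG00000032366.9), the main tropomyosin of heart muscle, fell. Its scaled RPKM was 1484 and 1677 in Control-CMs replicates 3 and 5, and 1069, 1008 and 1079 in OSKM-CMs replicates 1, 2 and 3. The 3 OSKM-CMs libraries lay close together and below both controls, as did the summed level of the cardiomyocyte markers, whose part in the fall of Tpm1 was not tested. Means were 1580 ± 136 (SD, n = 2) and 1052 ± 38.6 (SD, n = 3), so the OSKM-CMs mean was 66.6% of the control mean (log2 fold change -0.58, SE 0.11, limma adjusted p = 0.00699). The call held without any 1 library, with values from -0.67 to -0.50. It was lost with library totals alone (-0.17, adjusted p = 0.19), where its difference from the median of all genes was -0.52. It rested on 20349 to 33439 reads per library. The 16 coding transcripts of Tpm1 in GENCODE M21, which differ in muscle and other tissues, were counted as 1 gene and cannot be separated in these values.

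The minor tropomyosins had low levels and did not pass. Tpm4 (ENSMUSG00000031799.9) had 19.3 and 16.4 scaled RPKM in the controls and 14.8, 10.96 and 16.1 in OSKM-CMs, a log2 fold change of -0.35 with a 95% interval of -0.77 to 0.07 (limma adjusted p = 0.183). Tpm2 (ENSMUSG00000028464.9), the beta form, had 3.99 and 5.26 in the controls and 3.25, 3.43 and 3.60 in OSKM-CMs, a log2 fold change of -0.34 with an interval of -0.73 to 0.05 (adjusted p = 0.17). It was read 29 to 47 times per library. Tpm3 (ENSMUSG00000027940.11) was the only tropomyosin with a positive value, from 3.60 and 3.69 in the controls to 4.76, 4.07 and 5.48 in OSKM-CMs (log2 fold change 0.31, interval -0.08 to 0.69, adjusted p = 0.206). For all 3 of these genes the groups stood apart without overlap, as they did for 57.9% of all genes. With library totals alone Tpm3 passed at 0.64 (limma adjusted p = 0.0212), Tpm4 was at 0.044 and Tpm2 at -0.0014. The 1 added before logs understates the changes of Tpm2 and Tpm3, whose fitted values were -0.41 and 0.37 with 0.1 added.

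**Figure D3:**
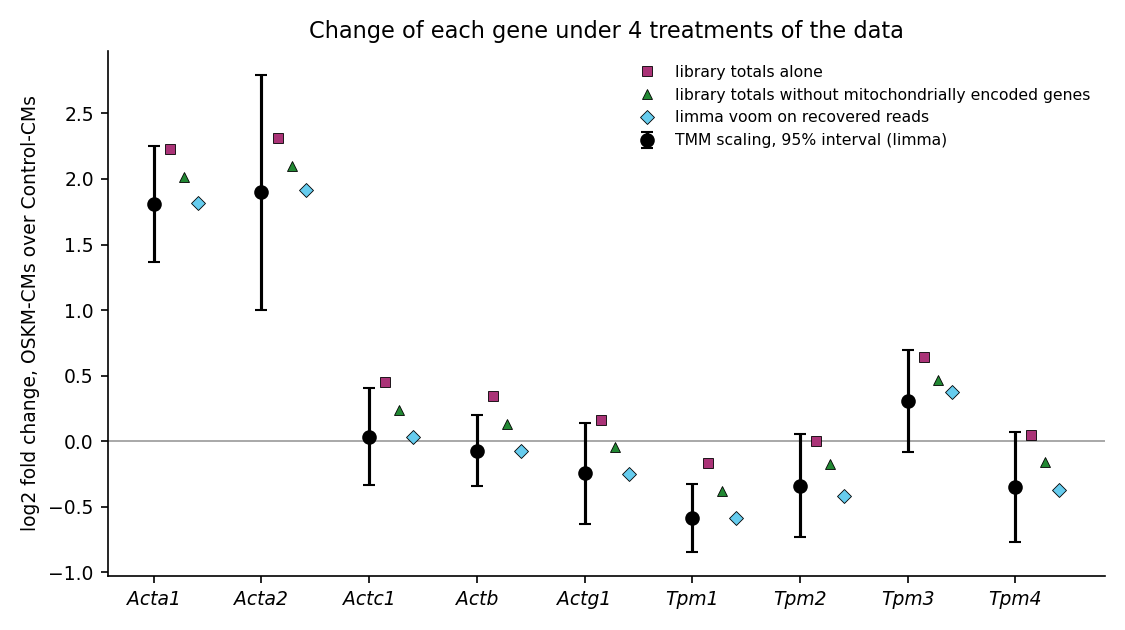
Log2 fold change of each gene with its 95% interval under TMM scaling (black) and the values under 2 other scalings and limma voom. The intervals of Acta1, Acta2 and Tpm1 lie clear of 0, and scaling to library totals alone moves all 9 values up.

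The authors' deposited table gave log2 fold changes of 1.84 for Acta1, 1.96 for Acta2 and -0.59 for Tpm1, with FDR values of 4.37e-13, 6.96e-07 and 4.95e-06. In the authors' deposited table the other 6 members had FDR values from 0.219 to 0.883, and 31.8% of its 12446 genes had an FDR below 0.05. The same 3 members were therefore below 0.05 in that table and in the limma fit.

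Shares within a library do not depend on the scaling between libraries. In the controls, Actc1 made up 97.2% and 96.9% of the summed RPKM of the 3 muscle actins. In OSKM-CMs its share was 91.5%, 89.7% and 90.2% in replicates 1, 2 and 3, lower in every library. The share of Acta1 went from 2.05% and 1.97% to 6.02%, 6.44% and 6.89%, and the OSKM-CMs values differed little from each other although the levels behind them did. Acta2 went from 0.712% and 1.08% to 2.45%, 3.84% and 2.91%. The control mean of the Acta1 share was 2.01% ± 0.0547 (SD, n = 2) and the OSKM-CMs mean 6.45% ± 0.432 (SD, n = 3). The ratio of Actc1 to Acta1 RPKM was 48.4 ± 1.22 in controls and 14.1 ± 1.06 in OSKM-CMs. By contrast, the ratio of Acta1 to Acta2 overlapped between groups, at 2.87 and 1.82 against 2.45, 1.68 and 2.37 (2-sided exact permutation p = 0.8). Cytoplasmic actins held 2.44% and 2.90% of the summed RPKM of the 5 actins in controls and 2.76%, 1.84% and 2.19% in OSKM-CMs (exact permutation p = 0.4). Actb took 74.1% and 68.8% of the cytoplasmic pair in controls and 75.9%, 70.6% and 75.3% in OSKM-CMs.

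Tpm1 dominated the tropomyosins in both groups, with 98.2% and 98.5% of the summed RPKM in controls and 97.9%, 98.2% and 97.7% in OSKM-CMs. The share of Tpm3 went from 0.238% and 0.217% to 0.436%, 0.396% and 0.496%, a ratio of 1.95 between the means of a small share. The ratio of Tpm3 to Tpm4 went from 0.186 and 0.225 to 0.322, 0.371 and 0.341, without overlap. Tpm2 stayed near 0.3% of the total, at 0.264% and 0.309% against 0.298%, 0.334% and 0.326%. Tpm4 had 1.28% and 0.965% against 1.36%, 1.07% and 1.45%, and the groups overlapped for both. The RPKM of Tpm1 and Tpm3 are divided by lengths of 6472 and 6071 bases, recovered from the file, whereas their longest coding transcripts in GENCODE M21 have 2890 and 2233 bases. Levels of these 2 genes per transcript are thus understated against Tpm2 (2900 and 2175 bases), Tpm4 (2194 and 2128 bases) and Acta1 (1439 and 1446 bases), and the fold change of a single gene between groups does not depend on its length. Differences in shares do: in reads in place of RPKM, the share of Tpm1 differed between groups by -0.28 percentage points (-0.42 in RPKM) and that of Tpm4 by 0.059 (0.17 in RPKM).

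**Figure D4:**
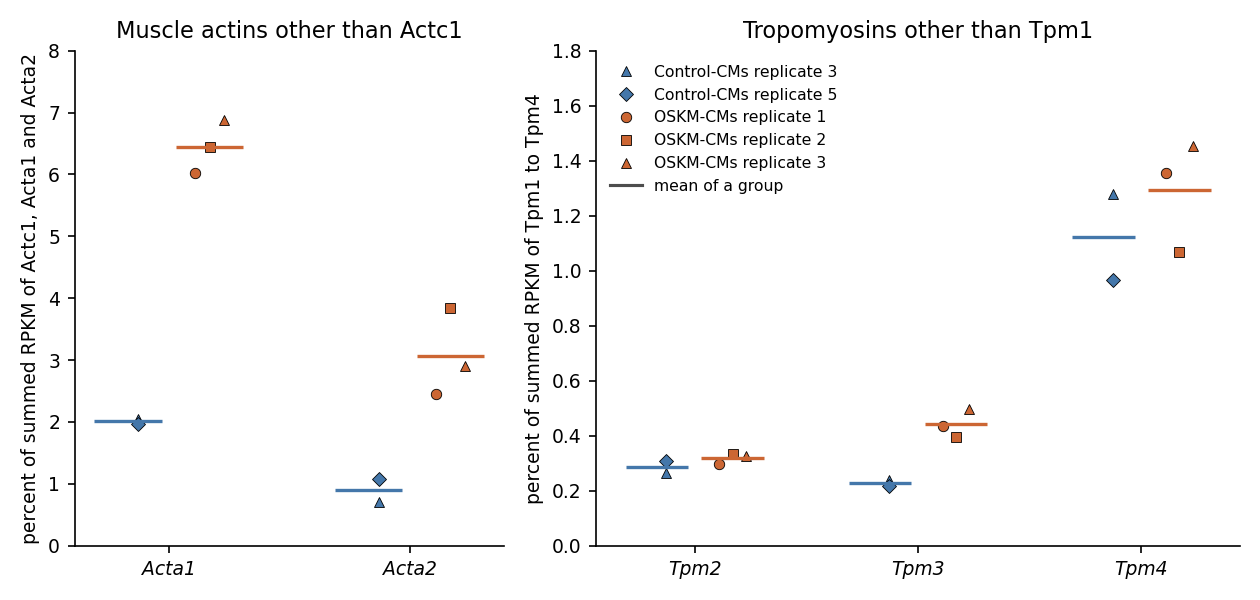
Shares of RPKM per library: Acta1 and Acta2 among the 3 muscle actins (left) and Tpm2, Tpm3 and Tpm4 among the 4 tropomyosins (right), with lines at group means and axes from 0. Acta1 runs from 6.02% to 6.89% in OSKM-CMs against about 2% in both controls, and the Tpm3 share is higher in all 3 OSKM-CMs libraries at under 0.5% of the total.

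The ratio of summed actin RPKM to summed tropomyosin RPKM was higher in every OSKM-CMs library. The summed scaled RPKM of the 5 actins was 6603 and 6607 in controls and 5935, 8441 and 7539 in OSKM-CMs, on both sides of the controls (exact permutation p = 0.6). The summed level of the 4 tropomyosins was 1511 and 1702 in controls and 1092, 1026 and 1104 in OSKM-CMs, lower in every library. The ratio of summed actin to summed tropomyosin was 4.37 and 3.88 in controls and 5.44, 8.22 and 6.83 in OSKM-CMs, a mean of 4.13 ± 0.345 (SD, n = 2) against 6.83 ± 1.39 (SD, n = 3). This ratio is free of the scaling between libraries, and its highest value, in replicate 2, goes with the highest Actc1. Its size is not a number of actin per tropomyosin transcript. The length used for Tpm1, 6472 bases, is above the 2890 of its longest coding transcript, which raises the ratio in both groups. In reads, Actc1 and Tpm1 had 31375 and 29879 in Control-CMs replicate 3. With 2 against 3 libraries, the 2-sided exact permutation test cannot give a p below 0.2. Of 19 shares, ratios and sums computed, 13 reached that smallest p, and none could pass after adjustment (smallest Benjamini-Hochberg value 0.292 from the exact test).

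The order of the members by scaled RPKM differed between groups. In controls it ran Actc1, Tpm1, Acta1, Actb, Acta2, Actg1, Tpm4, Tpm2 and Tpm3, with Acta1 and Actb overlapping and Acta2 and Actg1 overlapping. In OSKM-CMs it ran Actc1, Tpm1, Acta1, Acta2, Actb, Actg1, Tpm4, Tpm3 and Tpm2, and no neighbours overlapped. The place of Tpm3 below Tpm2 in controls rests on the long gene length of Tpm3, since in reads Tpm3 was above Tpm2 in both controls (68 and 69 against 36 and 47). By RPKM, Acta2 thus stood above beta-actin in OSKM-CMs (lowest 142 against highest 124) and below it in controls (highest 69.4 against lowest 119). Its place in OSKM-CMs depends on gene lengths of 1772 bases for Acta2 and 2674 for Actb (longest coding transcripts 2035 and 1920). In reads, Acta2 was below Actb in OSKM-CMs replicate 1 (772 against 1024) and in both controls. It was above Actb in OSKM-CMs replicate 2 (1761 against 914) and replicate 3 (1166 against 1020).

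The genes whose pattern came closest to each member were found among 2109 genes with a mean of at least 20 scaled RPKM, by the distance between log2 profiles centred on the control mean over the 5 libraries. For Acta1 they were Epdr1, an ependymin-related gene, at a distance of 0.33, and the lysosomal protease gene Ctsb at 0.33. For Acta2 they were Epdr1 at 0.49 and Acta1 at 0.64, so Acta1 was among the genes nearest to it. Tpm1 lay closest to 3425401B19Rik at 0.04 and to the prefoldin gene Pfdn5 at 0.07. Actc1 lay closest to 4930455C21Rik at 0.09 and the mitochondrial ribosomal gene Mrpl40 at 0.13. The nearest genes of the other members were Pafah1b1 and Psmd12 (Actb), Rab7 and Aurkaip1 (Actg1), Acot13 (Tpm2), Klhl7 and Ddx1 (Tpm3) and Prkrir and Ilkap (Tpm4), at distances from 0.06 to 0.17. With 5 libraries such a profile is mostly the difference between the groups.

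Partners of the thin filament were read from 6 lists with 88 genes in the table and 82 tested, of which 22 rose, 15 fell and 45 did not pass. That is 45.1% called, against 30.2% of all genes, with a median log2 fold change of 0.14 against 0.02. Calls were commoner among genes of higher level. At a mean RPKM of at least 5, 2530 of 6280 genes were called. The partner genes called there were 36, but how many of them passed that filter is not given, so no share can be compared. Whether the partners exceed genes of like level was not tested. Troponins, the calcium switch on tropomyosin, had 4 of 8 listed genes in the table, and all 4 passed. Tnni1 and Tnnt1, the slow skeletal forms, rose, from 2 and 0 reads to 496, 790 and 591 for Tnni1 and from 8.72 ± 1.64 to 529 ± 157 scaled RPKM for Tnnt1. The cardiac forms fell, Tnni3 by 1.31 and Tnnt2 by 0.60 on the log2 scale. Tnnt2 fell by nearly the same amount as Tpm1.

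Among 21 tested genes of filament length, capping and nucleation, 6 rose and 6 fell (9 not passing, median -0.01). Of all genes tested, 15.9% rose and 14.3% fell by limma. Tmod4, a pointed-end cap of skeletal muscle, fell by 2.04 on the log2 scale, from 19.5 ± 0.138 to 4.06 ± 1.14. Tmod1, the main cap of heart muscle, had 58.8 ± 3.18 and 52.0 ± 1.45 (limma adjusted p = 0.269). Kbtbd13 and Kbtbd5, muscle members of the kelch-repeat family, fell by 1.95 and 1.41, the former on 19 and 20 control reads. Nebl, nebulette, which lies along the cardiac thin filament near the Z-disc, fell by 0.77 (adjusted p = 0.00527). Neb, the long nebulin of skeletal muscle, had 1.31 ± 0.279 and 0.925 ± 0.325 (adjusted p = 0.392), and Lmod2, leiomodin, which lengthens cardiac thin filaments, had 245 ± 37.7 and 217 ± 25.9 (adjusted p = 0.397). The filament-severing protein gene Cfl1 and the monomer-binding Cap2 were singled out after their values were seen: Cfl1, the non-muscle cofilin, rose 1.37 on the log2 scale, while Cfl2, the muscle form, had 0.09 (adjusted p = 0.634), and Cap2 fell by 0.61.

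Among 22 tested actin- and tropomyosin-binding genes that act outside the striated sarcomere, 8 rose, 3 fell and 11 did not pass (median 0.30). By the same limma rule 15.9% of all genes tested rose and 14.3% fell. Tmsb4x, thymosin beta, which holds actin monomers, rose 2.83-fold from 68.0 ± 6.23 to 192 ± 26.5 scaled RPKM. Msn, moesin, which links actin to the membrane, rose 2.68-fold. Cald1, caldesmon, a partner of smooth muscle tropomyosin, had 2.61 ± 0.0769 and 3.40 ± 0.697 (limma adjusted p = 0.318). The summed level of this list was 378 and 356 in controls and 635, 571 and 699 in OSKM-CMs, in libraries where fibroblast markers were also higher, and the part of fibroblasts in it was not tested. Of 10 tested actin-related proteins, 2 rose (Actr1a and Actr1b, the filament-forming subunits of dynactin, by 0.44 and 0.49 on the log2 scale) and 0 fell by limma, with 8 not passing. At an unadjusted p below 0.05 there were 3 higher and 1 lower, and limma voom called 3 higher and 0 lower. Of 10 tested genes of actin maturation and folding, 1 fell and 0 rose by limma, as at an unadjusted p below 0.05 and by limma voom. That gene was Pfdn5, a subunit of prefoldin, which hands nascent actin to the chaperonin, and it fell by 0.62. With library totals alone 7 of the actin-related and 6 of the maturation genes were called higher and none of either list lower. Under that scaling 36.5% of all genes were called higher and 5.96% lower.

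SRF and its coactivators of the myocardin family drive actin genes in muscle. None of their genes that were tested passed: Srf had 26.3 ± 2.63 and 21.2 ± 2.78 scaled RPKM (limma adjusted p = 0.161), Myocd had 15.2 ± 3.45 and 13.8 ± 1.46 (adjusted p = 0.641), and Mkl2 had 2.93 ± 0.159 and 4.07 ± 0.730 (adjusted p = 0.182). Mkl1 was below the filter, with 6 to 23 reads per library. In the whole list of the SRF and MRTF axis, 5 of 16 tested genes rose, 3 fell (5 by limma voom) and 8 did not pass, with a median of -0.19. The limma shares over all genes tested were 15.9% higher and 14.3% lower. The largest rises were Ctgf, a matricellular protein also made by fibroblasts, at 4.95-fold, Ankrd1, a stress-responsive ankyrin-repeat protein of cardiomyocytes, at 4.14-fold, and Fhl1, a LIM protein, at 3.34-fold. The members that fell were Egr1, Fos and Fhl2, the first of them by 1.55 on the log2 scale. Egr1 and Fos are immediate early genes known to carry SRF sites, and these 3 genes were chosen for mention after their values were seen.

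**Figure D5:**
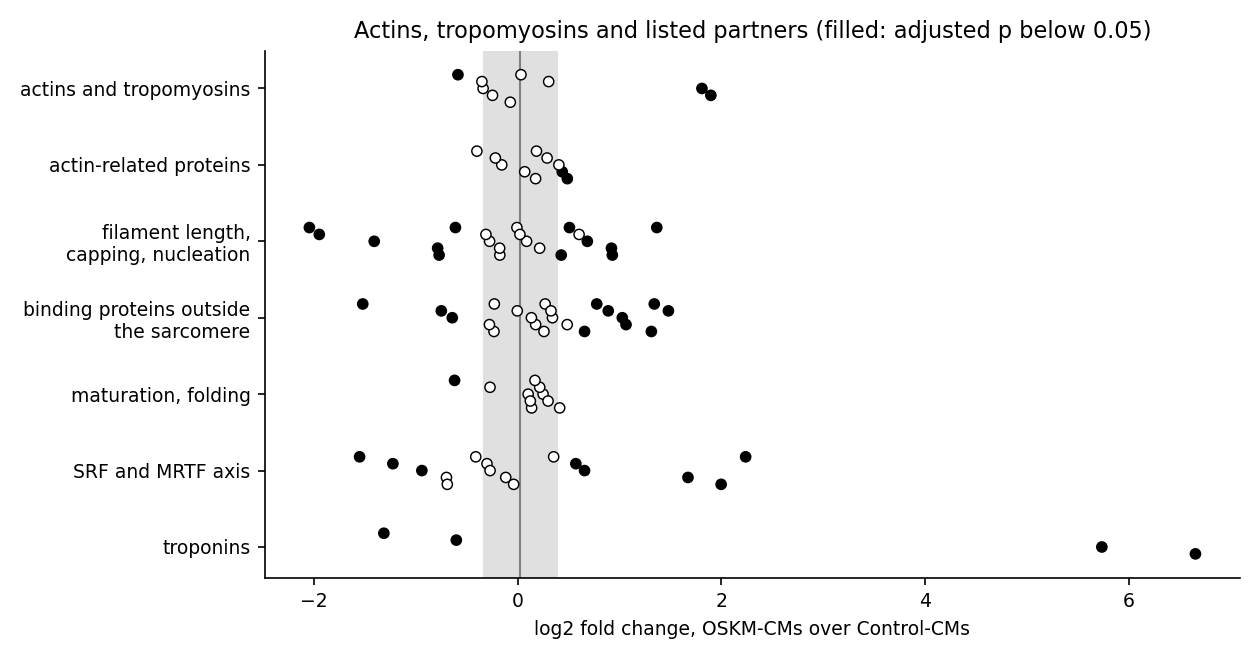
Log2 fold change of each tested gene of the actin and tropomyosin set and of the 6 partner lists, filled where the adjusted p was below 0.05; the grey band spans the middle 50% of all 10915 genes around their median. Acta1 and Acta2 lie near 2, as do Ankrd1 and Ctgf of the SRF and MRTF list. In that list 5 tested genes rose and 3 fell, and the 4 troponins lie to both sides.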

How the data were processed

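Bulk RNA-seq was read from 1 deposited table of 12446 genes. The submitters' processing notes name genome build mm9 and the tools STAR 2.5.3, HTSeq, Trimmomatic, FastQC and CASAVA 1.8.2. The annotation, strand setting and treatment of shared reads are not given in the sources used here. The deposited values per library are taken as RPKM from how they behave, as the headers give no unit. Per the file headers, the authors' other columns are a log2 fold change, an average log2 CPM, a likelihood-ratio score, and a p-value with its FDR.

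Reads and gene lengths were recovered from the steps of the RPKM. For 100% of genes the reads were whole within 0.0001 reads, and their sums lay within 11 reads of the totals found for the libraries. For 440 genes a common factor was settled from the authors' average abundance. TMM factors came from these reads (trimming 30% of log ratios and 5% of abundances at each end), and each RPKM was divided by its library's factor. The filter was a mean RPKM of 1 or more (10915 genes). The model was limma 3.58.1 (R 4.3.3; abundance trend, robust, 2-sided) on log2 of the scaled RPKM with 1 added, with Benjamini-Hochberg adjustment over all tested genes at 0.05. The added 1 understates changes of low genes. Recovery and model were tried on simulated data. The model was run there without TMM factors, so the scaling between libraries was not tested.

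The members, lists and tests were chosen with earlier results of these data known. Named were all 9 members, 10 fixed partner genes (Srf, Mkl1, Mkl2, Myocd, Tmod1, Lmod2, Neb, Nebl, Cald1, Tagln), the 3 called genes with the largest change in each list, and the 2 nearest genes per member, of which 1 is not reported here. Markers were named as examples, and a few partners after their values were seen. Listed genes absent from the table were not analysed here. For 0 reads the upper limit is 3 reads, or 0.777 to 1.11 CPM in a library (counting error only).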

Additional observations from a re-analysis of the deposited data

How the results depend on the processing

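Each member was refitted under 14 alternatives (other pseudocounts, filters, scalings, limma settings, limma voom on recovered reads, and leaving out each library). Acta1 kept its direction and passed in all of them, and Tpm1 in all but library totals alone, where it was -0.17 (limma adjusted p = 0.19). Acta2 kept its direction, but its adjusted p was 0.0528 with limma voom (1.92) and 0.0612 without Control-CMs replicate 3 (1.605). With library totals alone, Actc1 (0.45) and Tpm3 (0.64) passed, Actb (0.35), Actg1 (0.17) and Tpm4 (0.044) changed sign, and 5 members were called. Under this scaling the median of all genes was 0.36 and 3985 genes were higher and 650 lower. Actb was 0.13 with totals that left out mitochondrially encoded genes. The log2 ratio of group means was 0.56 for summed actins with library totals alone (0.15 with TMM), and for summed tropomyosins -0.16 with library totals and -0.38 without mitochondrial genes (-0.58 with TMM). Tpm2 and Tpm3 have no value at a minimum of 5 RPKM. The Acta1 share of muscle actins differed by 3.99 percentage points in reads in place of RPKM (4.44 in RPKM). The cause of these shifts was not tested.

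Leaving out 1 library gave 1.605 to 2.19 for Acta2, -0.075 to 0.17 for Actc1, -0.14 to 0.0014 for Actb, -0.50 to 0.0085 for Actg1, -0.50 to -0.17 for Tpm2, -0.46 to -0.20 for Tpm4, and -0.66 to -0.49 for summed tropomyosins. The range was 0.028 to 0.27 for summed actins and -0.56 to -0.27 percentage points for the Tpm1 share (-0.42 with all libraries). It left 2 or 3 members called, 2209 to 3066 of all genes and 26 to 39 partner genes. Where 1 control was left, it was assumed to vary like the OSKM-CMs group. No paired analysis was possible because Control-CMs and OSKM-CMs have just 1 replicate number in common. Depth limits Tpm2 and Tpm3 most, with 29 to 102 reads per library.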
